A study of Saccharomyces cerevisiae with 18 samples.

Results

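The genes of the nuclear pore complex of Saccharomyces cerevisiae were followed in 3 yeast strains and 3 RNA fractions. The 33 members were picked by gene name, and all 33 were found among the 7126 genes of the deposited table. The study asked how the duplicated genes RPL7A and RPL7B, which encode the ribosomal protein uL30 (uL30A and uL30B), affect which mRNAs are translated. Wild-type (WT) cells, R28P-30A cells and R28P-30B cells were each grown as 2 cultures, described as biological replicates, and each culture gave a total extract, a light ribosome fraction (subunits and monosomes) and a heavy polysome fraction (4 or more ribosomes), 18 libraries in all. All strains share the BY background and are listed as MATa with his3, leu2, lys2 and ura3 mutations. R28P-30A and R28P-30B carry, by the study's strain list, URA3 in place of the chromosomal RPL7A gene, a KMX cassette in place of RPL7B, and a LEU2 plasmid that carries the intron-free cDNA of uL30A or uL30B between the RPS28A promoter and the ADH1 terminator, so uL30 comes from a promoter that is not its own. WT keeps both chromosomal genes. Cells were collected in exponential phase at 30 °C, and the labels name both Yc medium and a synthetic minimal medium.

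The nuclear pore complex is the channel through the nuclear envelope that passes proteins into the nucleus and mRNAs and ribosomal subunits out of it. A membrane ring anchors it, an inner ring and an outer ring of structural nucleoporins form its scaffold, and nucleoporins with long stretches of phenylalanine-glycine (FG) repeats fill its channel and bind the transport receptors. A cytoplasmic platform finishes mRNA export, and a basket of filaments reaches into the nucleus. The subunits occur in the complex in fixed ratios, and several are among the longer yeast proteins.

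The identity of the libraries labelled R28P-30A is in doubt. Over the 6 libraries of a strain, R28P-30B gave 47409 reads of URA3, those labelled R28P-30A gave 11 and WT gave 3. The intron-encoded RNAs snR39 and snR59, which the plasmid cDNAs lack, were both present in the libraries labelled R28P-30A (2616 reads and 563 reads) as they were in WT (2596 reads and 631 reads), and R28P-30B had 1 read of either. WT gave 58984 RPL7B reads, the libraries labelled R28P-30A 40519 and R28P-30B 730928. RPL7A had 295415 reads in WT, 358251 under the label R28P-30A and 930 in R28P-30B. LEU2, the plasmid marker, had 6 reads in WT, 13091 under the label R28P-30A and 96411 in R28P-30B. The URA3, snR39, snR59 and RPL7B reads go against cells that lack both chromosomal RPL7 genes, so the name is used below only for the libraries labelled R28P-30A. Values of R28P-30B against WT do not rest on those libraries except through the shared estimate of spread, and a fit without them is given beside the result.

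The libraries held 17373839 to 31525927 reads, with a median of 26575904. Each member had between 630 and 9959 reads in a library. All 33 members passed the filters, which kept 5681 genes whose mean in WT total extracts was over 1 TPM and, of these, 5664 with reads in all 12 polysome libraries. TPM, reads per coding length scaled to a fixed total, was used for levels. The translation index of a gene is its heavy CPM divided by the light CPM of the same culture, where CPM is a library's reads scaled to a fixed total. Because CPM has the same total in every library, the index is relative to the other mRNAs of the culture. Differences are log2 fold changes ± the standard error (SE) of a limma fit over all genes tested, and a call means a Benjamini-Hochberg adjusted p under 0.05.

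Member genes lie on 12 chromosomes. Their coding length ran from 840 nt in POM33 to 5628 nt in MLP1, and its median was 2235 nt, where the 5664 tested genes had 1215 nt. There were 8 members under 1500 nt, 12 from 1500 to 3000 nt and 13 over 3000 nt. No other gene of the RefSeq annotation (R64) overlapped a member. Among the scaffold and repeat nucleoporins, 4 paralog pairs occur. Long stretches shared by a pair would matter for counting, because the authors kept every valid position of a read. The following windows of 30 bases show, in capitals, the longest run of bases that the coding sequences of a pair share exactly, 15 bases in each of the 4 pairs.
NUP100: ccggctcATTATTTGGAAACAAcacagctt
NUP116: gaggcggATTATTTGGAAACAAtcaagttg
NUP157: taaagagTGATATGGGTATTTTtctcgaac
NUP170: caaaaacTGATATGGGTATTTTcccggagt
NUP53: gattgaaTAATTGGTTATTTGGatggaatg
ASM4: aactgagTAATTGGTTATTTGGttggaatg
MLP1: attcaatTACAAGAAAAAAATGcagaactt
MLP2: aatgagcTACAAGAAAAAAATGttgaactc
These windows are from R64, read on the coding strand: NUP100 at chrXI:311613-311642 (+ strand), NUP116 at chrXIII:364929-364958 (- strand), NUP157 at chrV:371509-371538 (- strand), NUP170 at chrII:75764-75793 (+ strand), NUP53 at chrXIII:565825-565854 (+ strand), ASM4 at chrIV:298425-298454 (- strand), MLP1 at chrXI:621422-621451 (+ strand) and MLP2 at chrIX:66481-66510 (- strand). Aligned over their coding sequences, the pairs were 54.1%, 55.4%, 50.2% and 51.3% identical in the same order.

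In WT total extracts the member mRNAs were of middling abundance and close to each other. Their mean levels ran from 27.7 to 234 TPM with a median of 59.5 TPM, against 57.7 TPM over all 5681 genes tested, and their log2 levels had an SD of 0.69 against 1.97 over all genes. The highest was SEC13 (226 and 241 TPM in the WT cultures), which also builds the coat of COPII vesicles. Next came NUP57 (125 and 141 TPM), part of the central channel, and NUP2 (115 and 127 TPM), a mobile basket protein. The lowest were NUP192 (26.9 and 28.5 TPM), an inner ring scaffold protein, NUP42 (27.4 and 32.2 TPM), a repeat protein of the cytoplasmic face, and POM152 (32.4 and 35.4 TPM), which spans the membrane. SEC13 stood clear of the others. NUP57 and NUP2 overlapped, as did NUP192 and NUP42. Longer members had lower TPM, with Pearson's r = -0.75 and Spearman's rho = -0.77 between log2 level and log2 coding length across the 33 genes, which are not independent replicates. The same relation was not computed over all genes. By subcomplex, the median ran from 39.8 TPM in the inner ring to 79.5 TPM in the membrane ring.

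**Figure D1:**
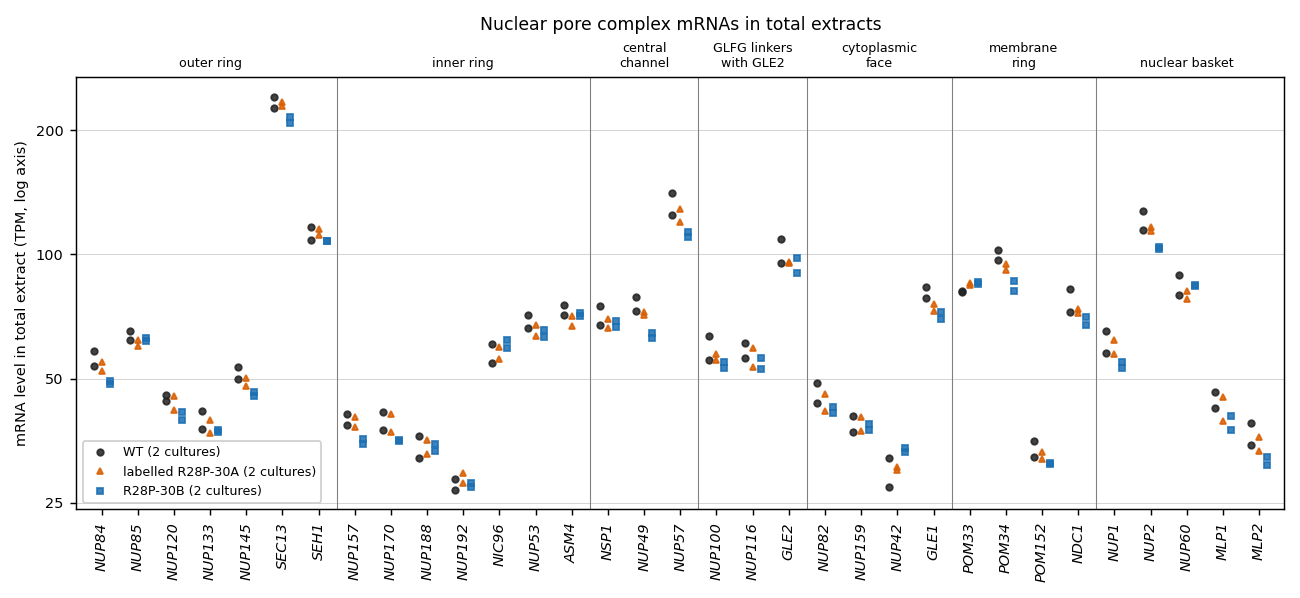
mRNA level of the 33 members in total extracts (TPM, log axis) by subcomplex, with 1 point for each of 2 cultures of WT, R28P-30A as labelled and R28P-30B. Points of the 3 strains lie close together for most genes, and SEC13 is the highest at 226 and 241 TPM in WT.

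Total levels of the members moved little between strains. None of the 33 was called between the libraries labelled R28P-30A and WT by limma, where 1.07% of all 5681 genes were. Of the members, 0 had an unadjusted p under 0.05 by limma, and by edgeR and DESeq2 0 were called and 1 and 0 had such a p. The smallest p belonged to GLE1, an activator of the mRNA export helicase, at 78.4 and 83.6 TPM in WT, 72.8 and 75.6 TPM in the extracts labelled R28P-30A, and 69.9 and 72.3 TPM in R28P-30B. The GLE1 difference between the extracts labelled R28P-30A and WT was -0.12 ± 0.07 (SE, limma adjusted p = 0.72). The median of the members was -0.06, beside -0.01 over all genes.

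In R28P-30B against WT, 4 of 33 members fell and 0 rose, where 13.6% of all genes fell and 10.6% rose. NUP49 stood at 73.1 and 79.0 TPM in WT, 72.5 and 71.5 TPM in the extracts labelled R28P-30A, and 62.7 and 64.5 TPM in R28P-30B, a difference of -0.25 ± 0.07 (SE, limma adjusted p = 0.012) against WT. NUP57 stood at 125 and 141 TPM in WT, 119.9 and 129 TPM in the extracts labelled R28P-30A, and 110.1 and 113 TPM in R28P-30B, with -0.24 ± 0.07 (SE, limma adjusted p = 0.015). NUP49 and NUP57 are partners in the central channel. POM34, of the membrane ring, stood at 96.8 and 102 TPM in WT, 91.9 and 94.9 TPM in the extracts labelled R28P-30A, and 81.6 and 86.2 TPM in R28P-30B, with -0.24 ± 0.07 (SE, limma adjusted p = 0.012). NUP2 stood at 115 and 127 TPM in WT, 114 and 117 TPM in the extracts labelled R28P-30A, and 103 and 104 TPM in R28P-30B, with -0.22 ± 0.07 (SE, limma adjusted p = 0.022). The R28P-30B cultures lay below both WT cultures for all 4 genes. They did so for 22 of the 33 members, against 41.2% of all genes, and lay above for 2, against 22.5%. The median difference was -0.13 beside -0.05, and the members ran from -0.25 to 0.17 (NUP42, adjusted p = 0.16). These calls hang on single cultures: without WT replicate 2 or without R28P-30B replicate 1 none of the 33 was called, without R28P-30B replicate 2 there were 2, and without WT replicate 1 there were 9. Without the libraries labelled R28P-30A the count stayed at 4. After centring on the median gene, 7 members were lower and NUP42 was higher, where 673 of 5681 genes were lower and 824 higher.

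Between R28P-30B and the libraries labelled R28P-30A, 0 of 33 total levels were called by limma, where 12.2% of all genes were. An unadjusted p under 0.05 was found for 4 members by limma, 8 by edgeR and 4 by DESeq2, and neither of the other tools called any. NUP49 had the smallest p, with -0.18 ± 0.07 (SE, limma adjusted p = 0.12), from the values given above. The median was -0.06 beside -0.04 over all genes.

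In WT, more members leaned to the heavy than to the light fractions. Of the 33, 17 had more CPM in heavy than in light fractions and 8 had less, which is 51.5% and 24.2%, where 32.6% and 51.6% of all 5664 genes did. The median log2 ratio was 0.17 beside -0.22 over all genes. When each culture was centred on its median gene, which moved every value by 0.22, 24 members were above the median gene and 8 below, with all genes split 2376 to 2360. The mean WT index ran from 0.502 to 2.48, a 4.93-fold range, with a median of 1.12 beside 0.860. Members were less spread than genes at large, with an SD of the log2 index of 0.62 against 0.94 over all genes.

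The highest WT index was that of NUP85 of the outer ring, at 2.64 and 2.31 in the cultures, with a log2 ratio of 1.30 ± 0.07 (SE, limma adjusted p = 6.9e-12). SEC13 followed at 2.15 and 2.27 (1.14 ± 0.06) and NUP100, a repeat protein, at 2.25 and 2.10 (1.12 ± 0.07). NUP85 lay above the others in both cultures, and SEC13 and NUP100 overlapped. The lowest was NUP42, at 0.475 and 0.530, with -0.99 ± 0.08 (SE, limma adjusted p = 1.3e-09). POM34 stood at 0.561 and 0.582 (-0.81 ± 0.08) and NIC96, the anchor of the central channel, at 0.601 and 0.675 (-0.65 ± 0.07). NIC96, POM152 and ASM4 could not be told apart by their cultures. All 4 genes of the membrane ring were below 1, at a mean index of 0.571 to 0.728. All 3 genes of the central channel were above 1, at 1.20 to 1.76, and so were all 5 of the nuclear basket, at 1.03 to 1.83. Over all 5664 genes the log2 ratio was above 0 for 2276 and below 0 for 3388. An index of 1 depends on the scale of the libraries. The outer ring was divided, from 0.733 in NUP133 to NUP85. The call of NUP82 (log2 0.17) was lost when either WT culture was left out, with adjusted p = 0.074 without replicate 1 and 0.27 without replicate 2. Coding length ordered the members only loosely in WT (Pearson's r = 0.24 and Spearman's rho = 0.27 across 33 genes), less than over the 5664 genes (r = 0.45).

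**Figure D2:**
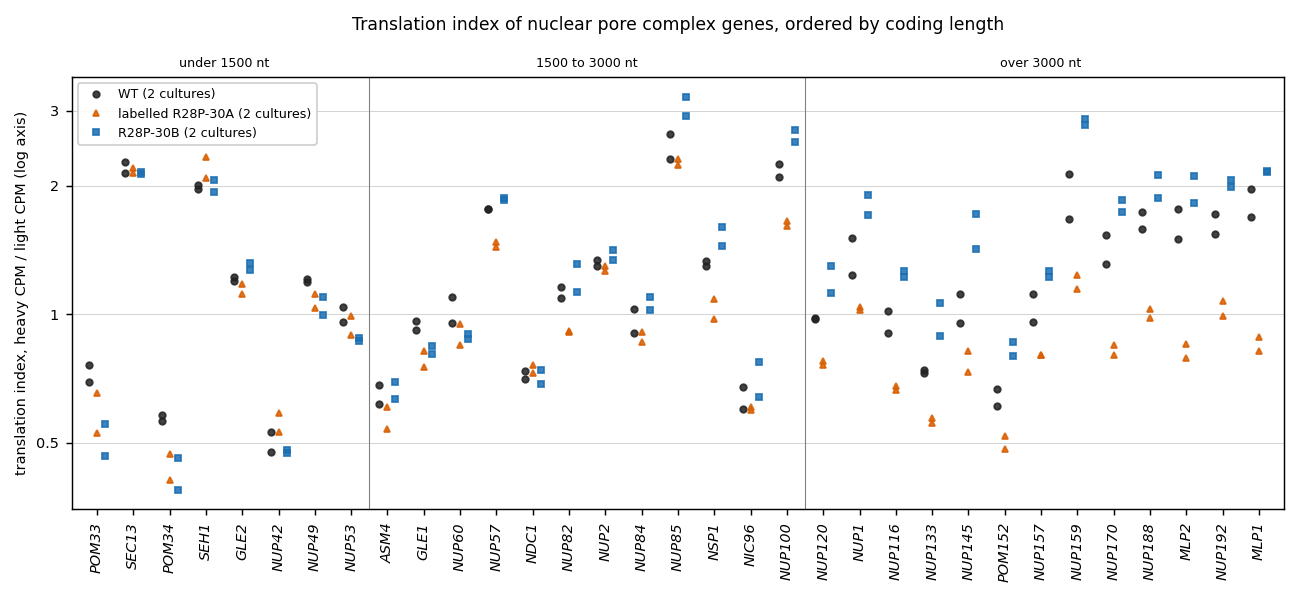
Translation index (heavy CPM over light CPM, log axis) of the 33 members in order of coding length, with 1 point per culture and vertical lines at 1500 and 3000 nt. Over 3000 nt, the cultures labelled R28P-30A lie below WT and those of R28P-30B above, while under 1500 nt no member was called on the CPM scale between R28P-30B and the libraries labelled R28P-30A.

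In the libraries labelled R28P-30A, long members carried a lower translation index than in WT. On the CPM scale 19 of 33 members fell and 0 rose, where 25.3% of all genes fell and 5.56% rose. All 13 members over 3000 nt fell, with a median of -0.51. Of the 12 from 1500 to 3000 nt 5 fell, with a median of -0.19, beside 564 of 1685 genes of that length with a median of -0.20. Of the 8 under 1500 nt only POM34 fell, with a median of -0.08, beside 443 of 3499 genes of that length with a median of -0.05. The whole set had a median of -0.31 beside -0.13 over all genes. Genes of the same length moved likewise: over 3000 nt, 425 of 480 genes fell with a median of -0.55. The index of both cultures lay below both WT cultures for 25 members, against 50.7% of all genes, and above for 2, against 17%.

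The scale of the libraries bears on this count. Centring on the median gene raised every value by 0.17, and 8 members were then lower and 2 higher, the short SEH1 (0.32) and NUP42 (0.32), while all genes split 862 higher to 607 lower instead of 315 to 1432. Lower under TMM scaling, centring, edgeR and DESeq2 alike were 7 members: MLP1, MLP2, NUP170, NUP188, NUP159, NUP192 and NUP116. The largest difference was that of MLP1, -1.10 ± 0.10 (SE, limma adjusted p = 7.2e-06) on the CPM scale and -0.93 after centring. Next were MLP2 with -0.99 ± 0.10 (SE, limma adjusted p = 1.5e-05) and NUP170 with -0.78 ± 0.10 (SE, limma adjusted p = 4.4e-05). Leaving out 1 culture left 11 to 18 members called, 11 of them without WT replicate 1, and 9 of the 19 were called in all 6 of these fits.

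R28P-30B moved the other way for long members. Against WT, 11 of 33 members rose and 2 fell, where 12.4% of all genes rose and 10.2% fell. Of the 13 members over 3000 nt 9 rose, with a median of 0.34, beside 259 of 480 genes of that length with a median of 0.35. From 1500 to 3000 nt 2 of 12 rose, NUP85 and NUP100, beside 378 of 1685 genes of that length. Under 1500 nt none of 8 rose and POM33 and POM34 fell, where 68 of 3499 genes rose and 548 fell. The median over all members was 0.14 beside -0.04 over all genes. Both R28P-30B cultures lay above both WT cultures for 18 members, against 29.2% of all genes, and below for 6, against 36.3%. The largest increases were those of NUP145 with 0.60 ± 0.11 (SE, limma adjusted p = 0.001), NUP159 with 0.58 ± 0.11 (SE, limma adjusted p = 0.001) and NUP133 with 0.41 ± 0.10 (SE, limma adjusted p = 0.007). The decreases were those of POM33, -0.52 ± 0.12 (SE, limma adjusted p = 0.005), and POM34, -0.44 ± 0.11 (SE, limma adjusted p = 0.009).

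Scaling left this count nearly as it was: centring moved values by -0.01 and called 11 higher and 2 lower, where 658 of 5664 genes were higher and 670 lower. Single cultures did not. Without WT replicate 2 or without R28P-30B replicate 2, 3 members were called, and of the 13 only NUP145 and NUP159 were called in all 6 fits that left out 1 culture. Without the libraries labelled R28P-30A, 13 rose and 2 fell. The WT cultures themselves differed over the long members, with median log2 indices of 0.60 and 0.31 over 3000 nt in replicates 1 and 2, against 0.79 and 0.78 in R28P-30B and -0.31 and -0.29 in the libraries labelled R28P-30A. Under 1500 nt the medians were 0.10 and 0.15 in WT, -0.03 and -0.11 in R28P-30B and 0.07 and -0.06 in the libraries labelled R28P-30A. The strains did not overlap over 3000 nt. Both comparisons with WT use the same WT cultures, so their differences are set side by side and not as separate evidence.

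The direct comparison of R28P-30B with the libraries labelled R28P-30A does not use WT and gave the widest gap. The index of 19 of 33 members was higher in R28P-30B and that of 0 lower, where 30.7% of all genes were higher and 15.4% lower. All 13 members over 3000 nt were higher, with a median of 0.97, beside 467 of 480 genes of that length with a median of 0.89. From 1500 to 3000 nt 6 of 12 were higher, with a median of 0.24, beside 936 of 1685 genes of that length with a median of 0.31. Under 1500 nt 0 of 8 were called, with a median of -0.08 beside -0.09, where 335 of 3499 genes were higher and 853 lower. The cultures of R28P-30B lay above for 23 members, against 43.3% of all genes, and below for 3, against 28.5%. The largest differences were those of MLP1 with 1.34 ± 0.10 (SE, limma adjusted p = 7.2e-08), MLP2 with 1.26 ± 0.10 (SE, limma adjusted p = 1.4e-07) and NUP159 with 1.25 ± 0.11 (SE, limma adjusted p = 1.7e-07). Centring on the median gene moved every value by -0.18, and then 17 were higher and 6 lower (NUP42, SEH1, POM33, SEC13, NDC1 and NUP53), with all genes at 1201 to 1867 instead of 1738 to 871. Higher under all 4 other scalings and tools were 15 of the 19. Leaving out 1 culture left 17 to 19 called, the calls of NUP84 and NUP82 being the ones lost.

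**Figure D3:**
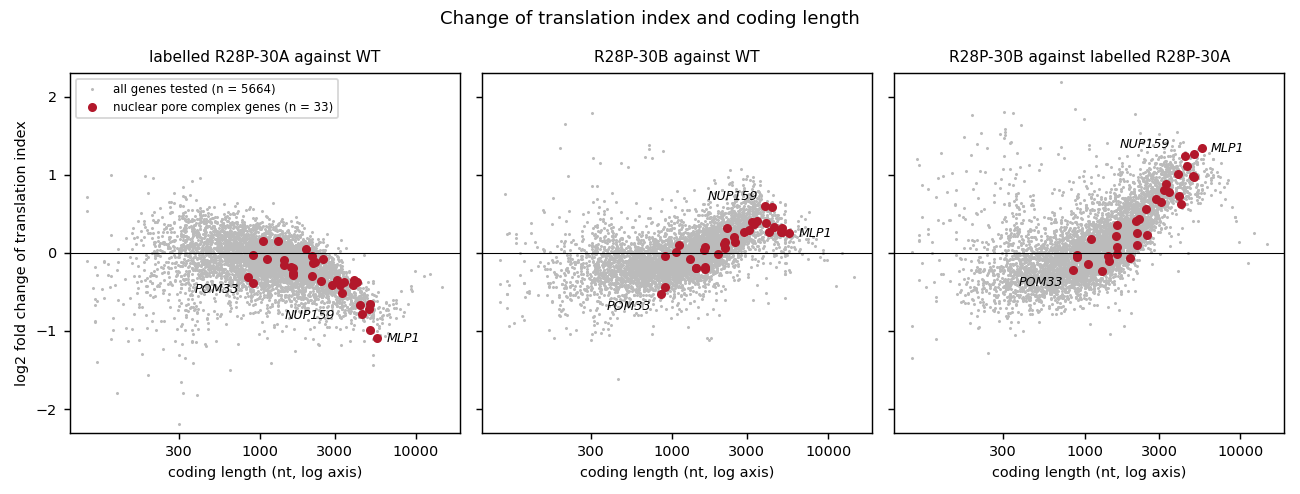
log2 fold change of the translation index against coding length (log axis) in the 3 strain comparisons, with the 33 members over the 5664 genes tested. The members follow the cloud of all genes, and MLP1, the longest, lies at -1.10, 0.25 and 1.34 from left to right.

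Coding length ordered the members' differences closely. Across the 33 genes, log2 fold change of the index and log2 coding length had Pearson's r = -0.75 and Spearman's rho = -0.77 for the libraries labelled R28P-30A against WT, r = 0.83 and rho = 0.83 for R28P-30B against WT, and r = 0.92 and rho = 0.93 between R28P-30B and the libraries labelled R28P-30A. Over the 5664 genes r was -0.37, 0.52 and 0.60 in the same order. The values of a gene come from the same libraries, genes are not independent replicates, and centring moves all values together and leaves these relations as they are. In total extracts the relation was weak, with r = 0.07, -0.09 and -0.16 and rho = 0.26, -0.02 and -0.08. Within single cultures, the slope of log2 index on log2 coding length over the members was 0.25 and 0.12 per doubling in WT, -0.11 and -0.06 in the libraries labelled R28P-30A against 0.42 and 0.48 in R28P-30B. The slopes of the strains did not overlap. Over all genes tested the WT slopes were 0.42 and 0.36, those of R28P-30B 0.53 and 0.54 and those of the libraries labelled R28P-30A 0.28 and 0.30. The slope was thus below 0 over the members and above 0 over all genes. The members are longer, with a median of 2235 nt against 1215 nt, and no slope over genes of like length was computed. Since 2 cultures against 2 allow no exact two-sided permutation p below 0.33, none is given.

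Over 3000 nt, members differed from WT more in the light fraction than in the heavy one. In the libraries labelled R28P-30A, mean light CPM over the WT mean had a median log2 of 0.42 over the 13 members above 3000 nt and 0.01 over the 8 under 1500 nt, while heavy CPM stood at -0.06 and -0.06. In R28P-30B light CPM stood at -0.54 over the long and -0.02 over the short members, and heavy CPM at -0.18 and -0.18. All genes over 3000 nt gave 0.51 and -0.48 in the light and -0.04 and -0.11 in the heavy fraction, for the 2 strains in the same order. Light CPM of the members followed log2 coding length at r = 0.81 in the libraries labelled R28P-30A against -0.82 in R28P-30B, and heavy CPM at 0.11 and -0.13, each over 33 genes and without a test. MLP1 shows the pattern: its light CPM was 133 and 167 CPM in WT, 294 and 285 CPM in the libraries labelled R28P-30A, and 109 and 109.6 CPM in R28P-30B. Its heavy CPM was 261 and 282 CPM in WT, 260.4 and 234 CPM in the libraries labelled R28P-30A, and 236 and 237 CPM in R28P-30B. In the light fractions the cultures of the 3 groups did not overlap. In the heavy fractions both R28P-30B cultures lay below both WT cultures, and the cultures labelled R28P-30A also lay below both and overlapped those of R28P-30B. NUP145 had light CPM of 206 and 247 CPM in WT, 326 and 279 CPM in the libraries labelled R28P-30A, and 139 and 128 CPM in R28P-30B, and heavy CPM of 229.7 and 235 CPM in WT, 239 and 229 CPM in the libraries labelled R28P-30A, and 198 and 219.6 CPM in R28P-30B. POM33, the shortest member, had light CPM of 94.4 and 91.1 CPM in WT, 105 and 115 CPM in the libraries labelled R28P-30A, and 120.1 and 125 CPM in R28P-30B, so its light fraction was highest in R28P-30B. The short POM34 differed the other way round from the long members, with a log2 of 0.06 in light and -0.33 in heavy fractions of the libraries labelled R28P-30A.

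**Figure D4:**
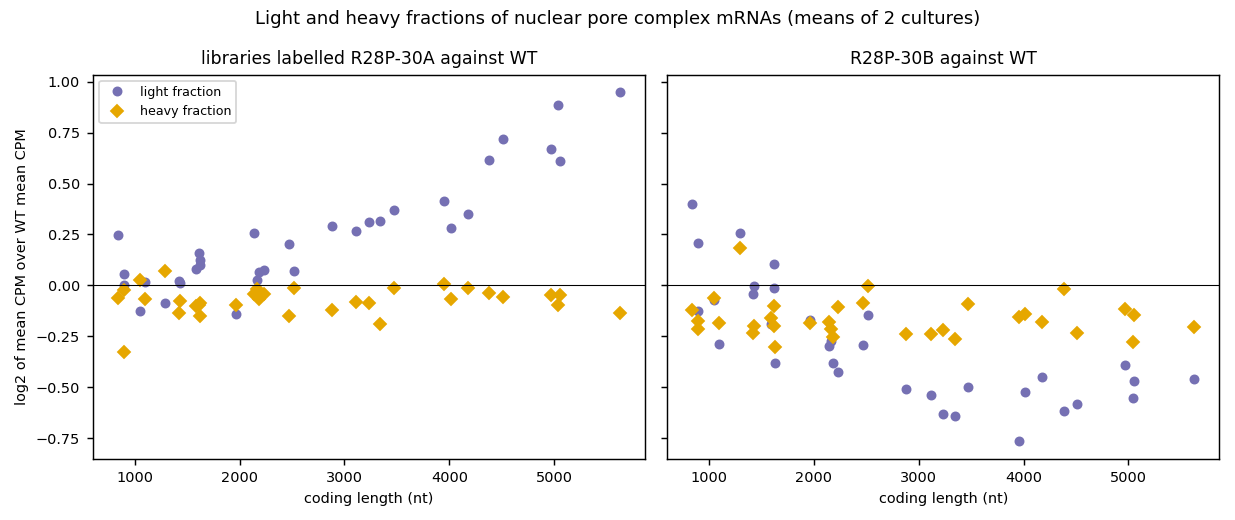
log2 of the mean CPM of a strain over the WT mean (2 cultures each) against coding length (nt) for the 33 members, in light fractions (circles) and heavy fractions (diamonds). Heavy values stay between -0.33 and 0.18, while light values reach 0.95 in the libraries labelled R28P-30A against -0.76 in R28P-30B.

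The nuclear basket held both members with the largest differences in the comparisons that use the libraries labelled R28P-30A, while between R28P-30B and WT the largest were NUP145 and NUP159. MLP1 and MLP2 are long coiled-coil proteins that form its filaments and hold mRNA before export. The index of MLP1 (YKR095W, chromosome XI, 619805 to 625432, + strand) was 1.96 and 1.69 in WT, 0.885 and 0.820 in the libraries labelled R28P-30A, and 2.17 and 2.16 in R28P-30B. That of MLP2 (YIL149C, chromosome IX, 63028 to 68067, - strand) was 1.76 and 1.50 in WT, 0.850 and 0.789 in the libraries labelled R28P-30A, and 2.11 and 1.83 in R28P-30B. For both genes every culture labelled R28P-30A lay below every WT culture and every R28P-30B culture above every WT culture, yet neither gene was called between R28P-30B and WT (adjusted p = 0.069 and 0.069). NUP1, a repeat protein of the basket, stood at 1.51 and 1.24 in WT, 1.02 and 1.04 in the libraries labelled R28P-30A, and 1.91 and 1.70 in R28P-30B, with -0.41 ± 0.10 (SE, limma adjusted p = 0.007) and 0.40 ± 0.10 (SE, limma adjusted p = 0.011) against WT. After centring, NUP1 was not called in the libraries labelled R28P-30A. The shorter basket genes moved less: NUP60, which ties the basket to the membrane, gave -0.19 ± 0.10 in the libraries labelled R28P-30A against -0.21 ± 0.10 in R28P-30B, and NUP2 gave -0.04 ± 0.09 and 0.06 ± 0.09, none of them called.

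In the inner ring, NUP170, NUP188, NUP192 and NUP157 are large scaffold proteins. NUP170 (YBL079W, chromosome II, 75259 to 79767, + strand) stood at 1.54 and 1.31 in WT, 0.804 and 0.847 in the libraries labelled R28P-30A, and 1.73 and 1.85 in R28P-30B. NUP192 (YJL039C, chromosome X, 368748 to 373799, - strand) stood at 1.71 and 1.54 in WT, 0.991 and 1.07 in the libraries labelled R28P-30A, and 1.99 and 2.07 in R28P-30B. NUP188 (YML103C, chromosome XIII, 62582 to 67549, - strand) stood at 1.73 and 1.58 in WT, 0.982 and 1.03 in the libraries labelled R28P-30A, and 1.87 and 2.12 in R28P-30B. The groups were separate for all 3. NUP188 fell by 0.72 in the libraries labelled R28P-30A and was not called in R28P-30B (0.27 ± 0.10, adjusted p = 0.055), while NUP192 fell by 0.66 and rose by 0.32, and NUP170 rose by 0.34. NUP157, the paralog of NUP170, stood at 1.12 and 0.959 in WT, 0.802 and 0.802 in the libraries labelled R28P-30A, and 1.26 and 1.22 in R28P-30B. In the libraries labelled R28P-30A it lay nearer to WT than NUP170 did, with -0.37 ± 0.09 against -0.78 ± 0.10, a contrast that was not tested. The fall of NUP157 was called on the CPM scale and not after centring. NIC96, NUP53 and ASM4, which link the ring to the channel and the membrane, are shorter and on the CPM scale were called in none of the 3 strain comparisons, with differences between -0.20 and 0.22. After centring NUP53 was called lower in R28P-30B than in the libraries labelled R28P-30A.

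The outer ring mixes long and short members. NUP145, whose precursor is cut into a repeat protein and a ring protein, stood at 1.12 and 0.952 in WT, 0.733 and 0.821 in the libraries labelled R28P-30A, and 1.42 and 1.71 in R28P-30B. NUP133 stood at 0.726 and 0.740 in WT, 0.557 and 0.570 in the libraries labelled R28P-30A, and 0.890 and 1.06 in R28P-30B. NUP120 stood at 0.982 and 0.976 in WT, 0.775 and 0.762 in the libraries labelled R28P-30A, and 1.12 and 1.29 in R28P-30B. The R28P-30B cultures of all 3 genes lay above WT and those labelled R28P-30A below it. On the CPM scale NUP145 fell by 0.41 in the libraries labelled R28P-30A, NUP133 by 0.38 and NUP120 by 0.35, calls that were lost after centring. NUP85 stood at 2.64 and 2.31 in WT, 2.24 and 2.31 in the libraries labelled R28P-30A, and 2.91 and 3.24 in R28P-30B, and was called against WT in R28P-30B (0.31 ± 0.10 (SE, limma adjusted p = 0.032)). NUP84, its partner, was called between R28P-30B and the libraries labelled R28P-30A (0.26 ± 0.10 (SE, limma adjusted p = 0.038)), from 0.903 and 1.03 in WT, 0.862 and 0.906 in the libraries labelled R28P-30A, and 1.02 and 1.10 in R28P-30B. The short ring proteins SEC13 and SEH1 were called in no strain comparison on the CPM scale. SEC13 stood at 2.15 and 2.27 in WT, 2.14 and 2.20 in the libraries labelled R28P-30A, and 2.15 and 2.13 in R28P-30B. SEH1 stood at 2.01 and 1.97 in WT, 2.08 and 2.33 in the libraries labelled R28P-30A, and 1.94 and 2.07 in R28P-30B, which was above WT in both cultures labelled R28P-30A (0.15 ± 0.09) and was called there after centring.

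Among the repeat proteins that line the channel, NUP116 and NUP100 carry GLFG repeats and bind transport receptors. NUP116 stood at 1.02 and 0.904 in WT, 0.679 and 0.664 in the libraries labelled R28P-30A, and 1.22 and 1.26 in R28P-30B, with -0.51 ± 0.09 (SE, limma adjusted p = 0.00057) and 0.37 ± 0.09 (SE, limma adjusted p = 0.008) against WT. NUP100 stood at 2.25 and 2.10 in WT, 1.61 and 1.65 in the libraries labelled R28P-30A, and 2.54 and 2.71 in R28P-30B, with -0.41 ± 0.09 and 0.27 ± 0.09. Under TMM scaling, edgeR and DESeq2 the fall of NUP100 was not called. Both genes separated the strains. Their short partner GLE2, an mRNA export factor, gave -0.08 ± 0.09 and 0.10 ± 0.09 and was not called. In the central channel NSP1 stood at 1.30 and 1.33 in WT, 1.09 and 0.975 in the libraries labelled R28P-30A, and 1.45 and 1.60 in R28P-30B and NUP57 at 1.76 and 1.77 in WT, 1.47 and 1.44 in the libraries labelled R28P-30A, and 1.85 and 1.87 in R28P-30B. These fell in the libraries labelled R28P-30A by 0.35 and 0.28 on the CPM scale, calls that were lost after centring. NUP49, the shortest of the channel trimer, was called in no index comparison.

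At the cytoplasmic face, NUP159 (YIL115C, chromosome IX, 144327 to 148709, - strand) recruits the mRNA export helicase DBP5. Its index was 2.13 and 1.67 in WT, 1.15 and 1.23 in the libraries labelled R28P-30A, and 2.78 and 2.87 in R28P-30B. It was called against WT in both directions, with -0.66 ± 0.11 (SE, limma adjusted p = 0.0003) and 0.58 ± 0.11 (SE, limma adjusted p = 0.001) against WT. NUP82, which holds NUP159, stood at 1.09 and 1.16 in WT, 0.910 and 0.915 in the libraries labelled R28P-30A, and 1.13 and 1.31 in R28P-30B and fell in the libraries labelled R28P-30A on the CPM scale (-0.30 ± 0.10) but not after centring. GLE1 stood at 0.916 and 0.963 in WT, 0.820 and 0.754 in the libraries labelled R28P-30A, and 0.808 and 0.843 in R28P-30B, with both other groups below WT. It was called in the libraries labelled R28P-30A (-0.26 ± 0.09 (SE, limma adjusted p = 0.044)), and the call was lost under every other scaling. NUP42, a short repeat protein that works with GLE1, stood at 0.475 and 0.530 in WT, 0.531 and 0.586 in the libraries labelled R28P-30A, and 0.474 and 0.479 in R28P-30B and was called in no strain comparison on the CPM scale.

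The membrane ring divided by length. POM152, the long transmembrane protein, stood at 0.668 and 0.610 in WT, 0.483 and 0.519 in the libraries labelled R28P-30A, and 0.798 and 0.861 in R28P-30B, with -0.35 ± 0.09 and 0.38 ± 0.09 against WT. POM34, its short partner, stood at 0.561 and 0.582 in WT, 0.470 and 0.409 in the libraries labelled R28P-30A, and 0.460 and 0.388 in R28P-30B, with -0.38 ± 0.11 and -0.44 ± 0.11. The calls of POM152 and POM34 in the libraries labelled R28P-30A were lost after centring. POM33, which helps to distribute pores in the envelope, stood at 0.695 and 0.762 in WT, 0.655 and 0.526 in the libraries labelled R28P-30A, and 0.552 and 0.465 in R28P-30B. POM33 and POM34 thus lay below WT in both other groups, POM152 below in one and above in the other. POM33 fell in R28P-30B and was not called in the libraries labelled R28P-30A (adjusted p = 0.056). NDC1, also part of spindle pole bodies, gave 0.05 ± 0.09 and -0.01 ± 0.09 and was not called on the CPM scale.

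The 10 members with at least 10 FG dipeptides, from 12 in NUP2 to 47 in NUP116, were set beside the other 23. In the libraries labelled R28P-30A 7 of 10 fell, with a median of -0.38, and 12 of 23 others, with -0.30, beside 25.3% of all genes. After centring on the median gene 3 of 10 and 5 of 23 were lower, and NUP42 and SEH1 were higher, where 607 of 5664 genes were lower and 862 higher. In R28P-30B 5 of 10 rose, with 0.24, and 6 of 23 others rose and 2 fell, with 0.13, beside 12.4% of all genes that rose, and centring left these counts as they were. Between R28P-30B and the libraries labelled R28P-30A the medians were 0.62 and 0.26. The repeat proteins vary in length from NUP42 to NUP159, and NUP49 and NUP42, the repeat proteins under 1500 nt, were called in none of the 3 comparisons on the CPM scale. After centring NUP42 was called higher in the libraries labelled R28P-30A than in WT and lower in R28P-30B than in those libraries.

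By the rule of the study, which counts genes whose mean index differs by more than log2 0.5 without a replicate test, 7 members were lower and 0 higher in the libraries labelled R28P-30A than in WT, where 12% and 1.15% of all genes were. In R28P-30B 2 were higher and 1 lower than in WT, where 4.78% and 4.08% were. Between R28P-30B and the libraries labelled R28P-30A 15 were higher and 0 lower, where 20.5% and 4.52% were. In total extracts of R28P-30B against WT 0 members passed the rule in either direction, where 4.68% of all genes were higher and 2.68% lower.

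The other genes of nuclear transport were taken from lists of 15 karyopherins, 8 genes of the Ran cycle and 10 of mRNA export. Their counts are on the CPM scale unless centring is named. Karyopherins, the receptors that carry cargo through the pore, are long genes, with 9 of 15 over 3000 nt and none under 1500 nt. Their index fell for 7 of 15 in the libraries labelled R28P-30A (median -0.22), led by MSN5 (-0.58 ± 0.10) and the exportin CRM1 (-0.57 ± 0.09), where 25.3% of all genes and 425 of 480 genes over 3000 nt fell. After centring 3 of 15 were lower (median -0.06). It rose for 12 of 15 in R28P-30B (median 0.40), led by the importins KAP123 (0.89 ± 0.10) and SXM1 (0.72 ± 0.11), where 12.4% of all genes and 259 of 480 over 3000 nt rose, and 12 were higher after centring. All 15 were higher in R28P-30B than in the libraries labelled R28P-30A (median 0.56), led by CRM1 (1.29 ± 0.09) and MSN5 (1.09 ± 0.10), where 30.7% of all genes and 467 of 480 over 3000 nt were. After centring 12 of 15 were higher. The Ran cycle genes, which encode the small GTPase that gives transport its direction and its regulators, are short, all 8 under 1500 nt. In the libraries labelled R28P-30A 3 of 8 rose (median 0.22), led by MOG1 (0.38 ± 0.11) and NTF2 (0.28 ± 0.09), where 5.56% of all genes and 303 of 3499 genes under 1500 nt rose. After centring 5 of 8 were higher (median 0.38). In R28P-30B only MOG1 was called, and it fell (-0.41 ± 0.11), where 10.2% of all genes did. Between R28P-30B and the libraries labelled R28P-30A 4 of 8 were lower, led by MOG1 (-0.78 ± 0.11) and NTF2 (-0.42 ± 0.09), where 15.4% of all genes and 853 of 3499 under 1500 nt were, and after centring all 8 were lower (median -0.47). Of the 10 mRNA export genes 8 are under 1500 nt. In the libraries labelled R28P-30A 4 of 10 fell, led by SAC3 (-0.64 ± 0.10) and GFD1 (-0.48 ± 0.11), where 25.3% of all genes and 443 of 3499 under 1500 nt fell. In R28P-30B SAC3 rose (0.39 ± 0.10) and GFD1 fell (-0.54 ± 0.11), where 12.4% of all genes rose and 10.2% fell. After centring, SAC3 was lower and SUB2 higher in the libraries labelled R28P-30A. SAC3, a long scaffold of the export complex at the basket, was the 1 export gene called between R28P-30B and the libraries labelled R28P-30A (1.03 ± 0.10). After centring DBP5, SUB2 and THP1 were also called in that comparison, as lower, where 1867 of 5664 genes were lower. In total extracts 0 of these 33 genes were called between the extracts labelled R28P-30A and WT, where 1.07% of all genes were. Against WT, GSP2 rose in R28P-30B (0.21 ± 0.07) while THP1 (-0.27 ± 0.08) and SUB2 (-0.22 ± 0.06) fell, where 10.6% of all genes rose and 13.6% fell.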

How the data were processed

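RNA of 18 libraries (3 strains, 3 fractions, 2 cultures each) was analysed by the strain, fraction and replicate number of the labels, and none was left out. Strand-specific libraries of poly(A) RNA were aligned by the authors with STAR (genome build R64), retaining all valid positions of multi-mapping reads, and featureCounts gave counts per gene. The deposited CPM, reads scaled to a common library total, gave whole reads, within 0.05 of a read, for 100% of values. The deposited TPM was not used, since it has no columns for 2 of the libraries. TPM was recomputed from recovered reads and RefSeq coding length, and genes without one held at most 0.470% of reads.

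limma 3.58.1 (R 4.3.3) was fitted to the log2 ratio of heavy CPM + 0.1 to light CPM + 0.1 in each culture, its variance trend taken on mean log2 CPM, and to log2(TPM + 1), with a spread shared by the 3 strains, over all genes above 1 TPM in WT total extracts. Fold changes on these scales understate the change of low genes. On simulated data with 200 genes changed by log2 1, 96.5% were recovered for the index of R28P-30B against WT over 5664 genes and 98% for total RNA over 5681. The spread of the simulated reads was set and not estimated from these cultures. A change of log2 1 is also larger than any called member change in R28P-30B against WT, so these rates do not give the power for such changes. edgeR 4.0.16 and DESeq2 1.42.0 on recovered reads, other scalings, filters and pseudocounts, a replicate block, and leaving out each culture were alternatives. Python 3.11.15, pandas 2.3.3, numpy 2.4.6, matplotlib 3.10.9 and biopython 1.88 did the rest.

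Members were named by gene and not by a measured value, but members, subcomplexes, lists and tests were all chosen with earlier results of these data known. Cultures were given in full for the 3 largest called differences in each direction, the 3 highest and lowest WT values, the smallest p where none was called, and members whose call was lost when 1 culture was left out.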

Additional observations from a re-analysis of the deposited data

Results flagged for a closer look

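The translation index of 19 members differed between the strains under a direct test, R28P-30B against the libraries labelled R28P-30A (limma, adjusted p under 0.05), and these are listed because the strains' differences from WT then differ from each other. On the log2 scale R28P-30B was higher for MLP1 by 1.34, MLP2 by 1.26, NUP159 by 1.25, NUP170 by 1.12, NUP145 by 1.01, NUP188 by 0.99. It was higher for NUP192 by 0.97, NUP116 by 0.89, NUP1 by 0.81, NUP133 by 0.79, POM152 by 0.73, NUP100 by 0.68, NUP120 by 0.65. It was also higher for NUP157 by 0.63, NSP1 by 0.56, NUP85 by 0.43, NUP82 by 0.41, NUP57 by 0.35 and NUP84 by 0.26. All 13 members over 3000 nt are among them, and on the CPM scale none under 1500 nt. Of all 5664 genes 30.7% were higher in R28P-30B on that scale, and of genes over 3000 nt 467 of 480 were. Under centring, TMM scaling, edgeR and DESeq2 alike, the short NUP42, SEH1, POM33 and NUP53 were called lower in R28P-30B. Of all 5664 genes, 1867, 1850, 1803 and 1513 were lower in the same order. The identity of the libraries labelled R28P-30A goes against their label, and its part in these differences was not tested.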

How the results depend on the processing

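Counts of members called between light and heavy fractions in WT stayed at 24 or 25 when a culture was left out, and reached 33 at most by other scalings. For the index of the libraries labelled R28P-30A against WT, 19 members were called, but 10 after centring on the median gene, 9 by TMM scaling, 9 by edgeR, 8 by DESeq2, 7 by the rule of log2 0.5 and 14 without a trend, with 11 to 18 when 1 culture was left out. For R28P-30B against WT, 13 became 6 without a trend, 4 with heavy and light libraries unpaired and 3 by the rule of log2 0.5, with 3 to 15 when 1 culture was left out. For R28P-30B against the libraries labelled R28P-30A, 19 became 23 after centring, 22 by TMM scaling, 22 by edgeR, 19 by DESeq2 and 15 by the rule of log2 0.5, with 17 to 19 when 1 culture was left out. For total RNA of R28P-30B against WT, 4 became 8 after centring, 8 by edgeR, 2 without a trend and 0 by the rule of log2 0.5, with 0 to 9 when 1 culture was left out. The other total RNA comparisons kept 0 when a culture was left out. The causes of these changes were not tested. Pseudocounts and filters on low values changed no count by more than 1.5 times, and no called member changed sign under any alternative.

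The replicate number was tried as a block, although the labels do not say that a number marks a shared day or batch. Deviations of same-numbered cultures correlated at -0.17, 0.11 and 0.15 for the index and at 0.12, 0.15 and 0.11 for total RNA across genes, and with 2 numbers this does not pair the cultures. With the replicate block 11 members were called in total RNA of R28P-30B against WT instead of 4, and 1 instead of 0 against the libraries labelled R28P-30A. For the index the block gave 25, 18, 13 and 19 calls, against 25, 19, 13 and 19.

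With 2 cultures a strain, calls near the threshold turn on 1 culture. Members had 630 or more reads in every library.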

Other observations

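Together the 33 members took a similar share of the reads of each total extract, 0.558 and 0.592% in WT, 0.543 and 0.568% in the extracts labelled R28P-30A and 0.526 and 0.530% in R28P-30B. In light fractions the share was 0.452 and 0.490% in WT, 0.589 and 0.553% in the libraries labelled R28P-30A and 0.391 and 0.373% in R28P-30B, with no overlap between the strains. In heavy fractions it was 0.549 and 0.578%, 0.555 and 0.517% and 0.504 and 0.495% in the same order. The summed level of the complex in total extracts was 2180.1 and 2380.1 TPM in WT, 2157 and 2244 TPM in the extracts labelled R28P-30A and 2070.1 and 2121 TPM in R28P-30B, so the R28P-30B cultures lay below both WT cultures. Shares are of recovered reads, which are not independent molecules, and no test was run on them.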
